A study of Homo sapiens with 18 samples.

Results

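The comparison described here is JQ1-VHL against DMSO in newly made cytoplasmic RNA of MDA-MB-453, a human breast cancer cell line of luminal type. Its members are 6 of the 18 libraries of the series, 3 with DMSO and 3 with JQ1-VHL, and all 12755 gene IDs of the deposited table. The rule of choice was the treatment and fraction named in the labels, and no measured value was used. The other 12 libraries are nuclear and total RNA of the same treatments, with 3 libraries per group. Cells received JQ1-VHL, a degrader of BET proteins that the sample titles call dBET, or the solvent DMSO, for 3 h. In both groups 4-thiouridine at 0.1 mM was present for the last 60 min, digitonin released the cytoplasm, and polyadenylated RNA was sequenced. Nothing in the labels states that the replicates came from separate cultures, so a p-value here reflects the spread between these libraries alone. In the labels, replicate number and batch number coincide.

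BET proteins, among them BRD2 and BRD3, bind acetylated histones and help RNA polymerase II leave the promoter-proximal pause, in part through P-TEFb, the kinase pair of CDK9 and a T-type cyclin. JQ1-VHL joins the BET ligand JQ1 to a ligand of the VHL ubiquitin ligase, which leads to destruction of the bound protein. 4-thiouridine enters RNA made while it is present, and after alkylation it is read as a T-to-C change, so T-to-C reads mark RNA made in the labelling window. The purity of the cytoplasmic fraction was not measured here. In bulk RNA, fewer cells and less RNA per cell cannot be told apart.

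The cytoplasmic libraries held 3.26 to 6.77 M T-to-C reads (M is the prefix mega). On the deposited ERCC scale, their sums were 8.63, 1.80 and 18.7 M units in DMSO and 10.5, 12.1 and 7.59 M units in JQ1-VHL. The DMSO sums differed 10.4-fold among themselves, and both groups overlapped. The ratio of the mean sums was 1.04, JQ1-VHL over DMSO, with p = 0.8 in an exact two-sided permutation test whose smallest possible p is 0.1. The ratio within the 3 batches was 1.21, 6.72 and 0.407. Per the labels' protocols the ERCC spike-in was added by RNA mass, so these sums are per mass of RNA and not per cell. Because the sums differed so much, gene comparisons below use rescaled values, each library being divided by 1 median-of-ratios factor. A change is then relative to the typical gene of the cytoplasm and not an absolute change. JQ1-VHL replicate 3 stood apart, with 37.9% of intervals at 0 against 30.7% and 30.0% in the other JQ1-VHL libraries and 15.5% to 29.9% in DMSO. No library without 4-thiouridine was analysed here, so T-to-C reads from unlabelled RNA were not measured.

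A gene's value is the sum of its numbered intervals, and these look like the gaps between exons rather than exons. The highest number equalled the count of gaps between merged exon blocks in 39.2% of 12546 gene IDs, which was the most frequent outcome. Protein-coding genes of 1 exon block, which have no gap, were in the table in 0.985% of cases, against 57.7% of those with more blocks. Within genes that had an interval for each of at least 5 gaps, the median Spearman correlation of value and gap length, with intervals numbered along the genome, was 0.486 over 1619 genes in DMSO nuclear RNA and 0.1 over 1612 in DMSO cytoplasmic RNA. Which reads an interval counts, those within introns or those across spliced exons, is not given in the sources used here. A gene value below is therefore the level of new RNA read over these intervals, and it was not shown to be that of the mature mRNA.

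**Figure D1:**
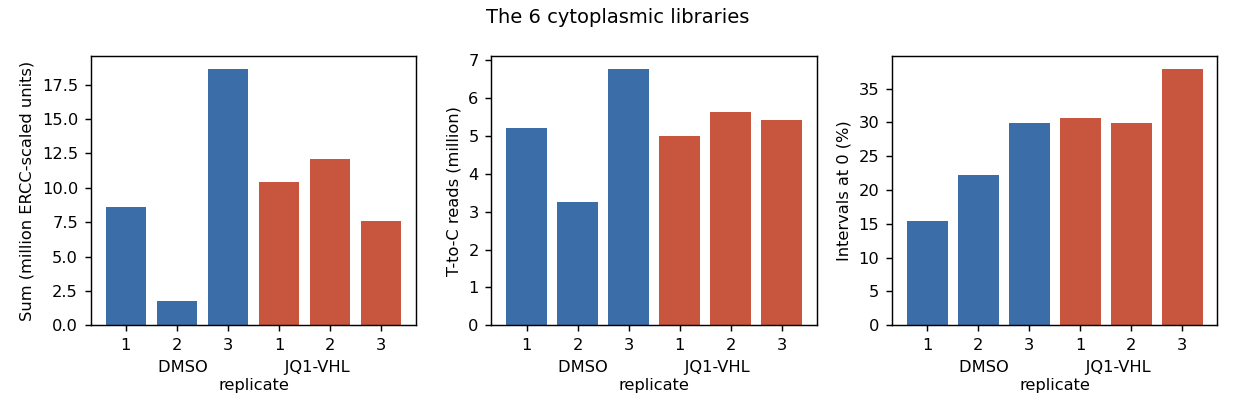
Bars give, for each of the 6 cytoplasmic libraries, the summed ERCC-scaled value in M units, the T-to-C reads in M and the percentage of intervals at 0; blue is DMSO and orange is JQ1-VHL. DMSO replicate 2 has the lowest sum (1.80) and DMSO replicate 3 the highest (18.7), while the reads span 3.26 to 6.77 M.

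The markers of the line were present. Rescaled values in DMSO were 12100 to 23900 for KRT8, 4470 to 6670 for KRT19, 4890 to 5610 for GATA3 and 1430 to 2650 for ERBB2, while ESR1 had 0 reads in the 6 libraries. PIP, an apocrine product, had 12 reads in all 6. Of 15 markers of other lineages, 4 had an interval, and 3 of those (LYZ, TP63 and ALB) stayed at or below 26.0 in each library. COL1A1, a fibrillar collagen, was at 343 to 398 in DMSO and 562 to 734 in JQ1-VHL. The sum over the 4 was 343 to 414 and 598 to 767, and its part in the results was not tested.

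With JQ1-VHL, many genes of low and moderate level were lower in cytoplasmic new RNA, and few were much higher. Of 8945 genes with a mean rescaled value of at least 10, limma called 828 at an adjusted p under 0.05, which is 9.26% of those tested: 663 lower (7.41%) and 165 higher (1.84%). The lower calls had a median log2 change of -2.75 and a median DMSO value of 141.7, and 490 of them were at or below -2. The higher calls had a median log2 change of 1.01 and a median DMSO value of 1413, and 16 were at or above 2. The median over all genes tested was -0.05. Scaling the libraries to equal sums instead shifted that median to -0.52 and left 13 higher and 1196 lower calls, so the higher calls are statements relative to the typical gene. On the ERCC scale 368 of the 663 lower and 9 of the 165 higher calls had an unadjusted limma p under 0.05, beside 587 of all 8945 genes. On that scale the groups overlapped for some of the calls in both directions. The calls were picked from the same libraries, so these counts are not separate support.

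The number of calls depended most on DMSO replicates 1 and 2. Without DMSO replicate 1, 29 genes were called, and without DMSO replicate 2, 18. In these 2 fits the unadjusted limma p was under 0.05 for 1971 of 8741 and 1985 of 9231 genes, beside 2697 of 8945 with all 6 libraries. Without JQ1-VHL replicate 1, 2 or 3, the counts were 424, 480 and 498, and without DMSO replicate 3 it was 955. On the ERCC scale limma called 0 genes, with 587 at an unadjusted p under 0.05, and edgeR with the ERCC factors also called 0, with 665. Without DMSO replicate 2, the ERCC scale gave 986 calls, 973 of them lower.

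**Figure D2:**
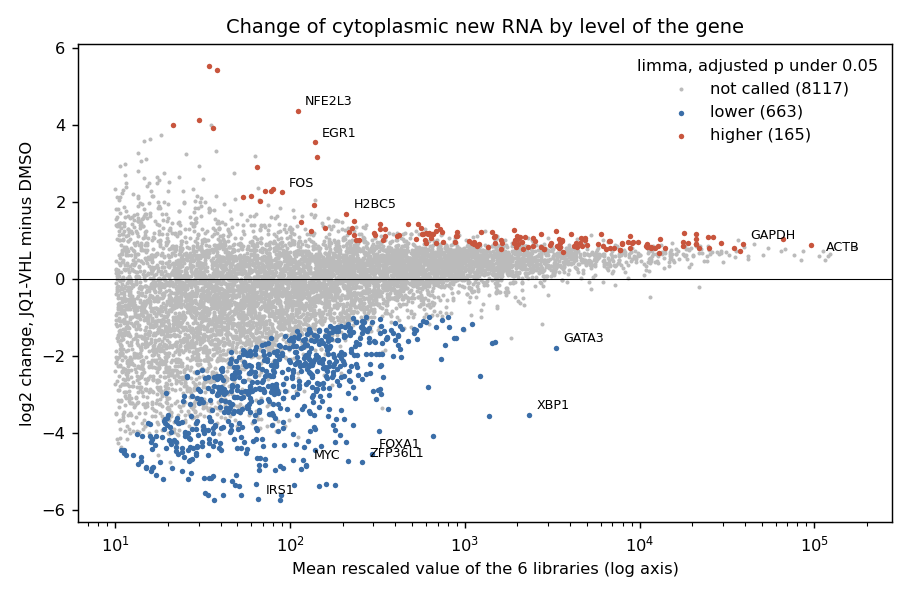
Each point is 1 of 8945 genes, with the mean rescaled value of the 6 libraries on a log axis against the log2 change, JQ1-VHL minus DMSO; blue and orange mark the 663 lower and 165 higher limma calls. The lower calls fan out below the middle of the level range, with GATA3 and XBP1 the labelled exceptions at high level, and most higher calls lie between 0 and 2 at the right.

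A set of 17 genes was called in the fit of all 6 libraries and in each of the 6 fits that left out 1 library: 15 lower and 2 higher. They were singled out after their values were seen. MYC, the growth-promoting transcription factor, was at 263, 177 and 278 in DMSO and at 15.5, 6.11 and 3.94 in JQ1-VHL. The groups were far apart, and the log2 change was -4.82 ± 0.57 (SE, n = 3 per group; limma adjusted p = 0.0034). ZFP36L1, which promotes decay of AU-rich mRNAs, fell from 539, 560 and 390 to 29.2, 27.5 and 5.90. The groups did not overlap, and its log2 change was -4.76 ± 0.56 (limma adjusted p = 0.0034). DUSP6, a phosphatase that inactivates ERK, was at 440, 212 and 441 against 29.2, 16.8 and 15.7, a log2 change of -4.06 ± 0.45 (limma adjusted p = 0.0029).

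Abundant genes were in this set too. XBP1, a luminal and secretory-pathway transcription factor, went from 3727, 3642 and 5380 to 569, 539 and 152, and GATA3, which specifies luminal identity, from 4889, 4928 and 5608 to 1533, 1598 and 1334. The GATA3 change was smaller, -1.79 ± 0.20, but its replicates were close (limma adjusted p = 0.0029), and XBP1 changed by -3.53 ± 0.45 (limma adjusted p = 0.005). PLK2, a polo-like kinase, was at 2531, 3103 and 1958 against 239, 278 and 136. PIK3R1, the regulatory subunit of PI3-kinase, was at 1884, 2500 and 1831 against 346, 465 and 277. For each of these genes the lowest DMSO value exceeded the highest JQ1-VHL value. The other lower members were THBS1, a secreted matrix glycoprotein (log2 change -4.07), BCAR3 (-3.95), the translational regulator CPEB4 (-3.92), the circadian repressor BHLHE40 (-3.79), the pseudokinase TRIB3 (-3.46), the breast antigen ANKRD30A (-3.39), PRR15 (-2.89) and the NF-kappaB cofactor BCL3 (-2.26). The highest adjusted p over the fits without 1 library was 0.041 for MYC and BCL3 and lower for the other 13 lower genes.

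The 2 higher genes of the set were EGR1 and NFE2L3. EGR1, a zinc finger transcription factor induced by growth signals, was at 15.7, 12.5 and 44.0 in DMSO and at 251, 217 and 291 in JQ1-VHL. Its log2 change was 3.54 ± 0.51 (limma adjusted p = 0.0071). In the nucleus EGR1 was at 2.85, 80.5 and 105 in DMSO and at 332, 231.5 and 201 in JQ1-VHL. It was not called there (limma adjusted p = 0.077), and DMSO replicate 1 stood far below the other DMSO libraries. NFE2L3, a CNC-type transcription factor, rose from 6.71, 10.4 and 8.80 to 241, 292 and 104, a log2 change of 4.36. Its DMSO mean of 8.637 was below the filter of 10, so it passed through the JQ1-VHL group and no p-value is given. A count of 3 reads equals 3.35, 6.24 and 3.30 rescaled units in DMSO replicates 1 to 3, so its DMSO values were near the floor. NFE2L3 overlaps HNRNPA2B1, whose own change was 0.80, and whether the counting used strand is not stated, so reads of the pair could be exchanged.

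The 12 lowest calls were named by a rule that asks for non-overlapping groups and a mean of at least 100. Of these, DUSP4, another ERK and JNK phosphatase, was at 181, 108 and 210 in DMSO and at 25.8, 0 and 0 in JQ1-VHL, a log2 change of -5.75 ± 1.16 (limma adjusted p = 0.02). IRS1, the docking protein of the insulin and IGF1 receptors, was at 173, 121 and 88.0 against 0, 0 and 11.8, a log2 change of -5.72 ± 1.03 (limma adjusted p = 0.015). SPRY1, an inhibitor of receptor tyrosine kinase signalling, was at 292, 412 and 214 against 0, 12.2 and 29.5. RND3, an atypical small GTPase, was at 234, 381 and 420 against 24.1, 0 and 21.6.

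In each of these 4 genes at least 1 JQ1-VHL library held 0 reads. A count of 3 reads equals 5.16, 4.58 and 5.90 rescaled units in JQ1-VHL replicates 1 to 3, so the fitted changes of such genes depend on the pseudocount. With a pseudocount of 0.1, 10 of the 12 lowest were no longer called, and IRS1 and ZKSCAN7-AS1 still were. DESeq2 did not call DUSP4 and DR1 (adjusted p = 0.11 and 0.16). The other 8 were DR1, a repressor of basal transcription (-5.62), ZSCAN12 (-5.62), NUDT4 (-5.37), ZKSCAN7-AS1 (-5.32), the nucleolar UTP25 (-4.97), INAFM2 (-4.95), ZNF800 (-4.94) and MTARC2 (-4.91). NUDT4 overlaps UBE2N and ZKSCAN7-AS1 overlaps ZKSCAN7 and ZNF197, so their reads may be shared. None of the 12 lowest was called without DMSO replicate 1 or without DMSO replicate 2.

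**Figure D3:**
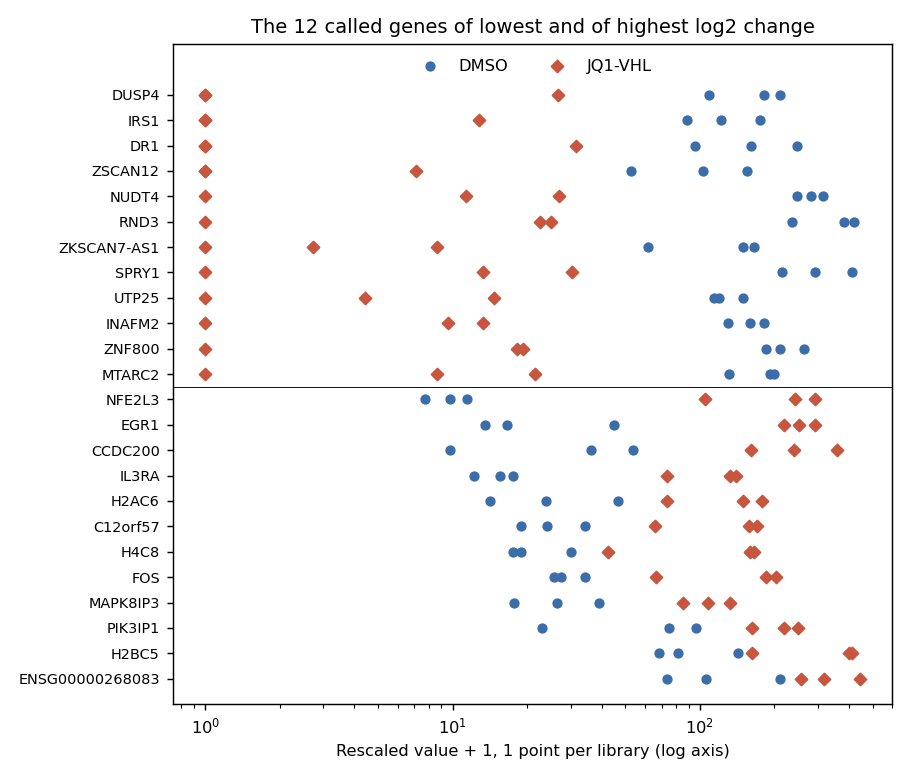
Each point is the rescaled value plus 1 of 1 library, on a log axis, for the 12 lowest (above the line) and 12 highest (below it) named genes; circles are DMSO and diamonds JQ1-VHL. For the 24 genes the 3 values of one group do not overlap those of the other, as the naming rule required. On the ERCC scale the groups overlapped for DUSP4, H2AC6, C12orf57, H4C8, MAPK8IP3, H2BC5 and ENSG00000268083. Each of the 12 lowest has at least 1 JQ1-VHL library at 0.

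Among the 12 highest, after NFE2L3 and EGR1, came CCDC200 (3.17, overlapping TMEM106A) and IL3RA, the alpha chain of the interleukin 3 receptor (2.90). FOS, the AP-1 subunit, was at 24.6, 33.3 and 26.4 in DMSO and at 184, 65.7 and 203 in JQ1-VHL, a log2 change of 2.24 ± 0.52 (limma adjusted p = 0.031). In the nucleus FOS was at 4.41, 145 and 177 in DMSO and at 364, 300 and 637 in JQ1-VHL, and was not called (limma adjusted p = 0.09). H2AC6, a replication-coupled H2A gene, was at 45.8, 22.9 and 13.2 against 177, 148 and 72.8, a log2 change of 2.32 ± 0.57 (limma adjusted p = 0.037). H2BC5, an H2B gene, was at 80.5, 141 and 67.1 against 411, 400 and 161, a log2 change of 1.69 ± 0.45 (limma adjusted p = 0.043). JQ1-VHL replicate 3 was the lowest JQ1-VHL library for both histone genes, whereas FOS was lowest in JQ1-VHL replicate 2. The rest were C12orf57 (2.28), the histone gene H4C8 (2.27), MAPK8IP3 (2.02, overlapping NME3), PIK3IP1, an inhibitor of PI3-kinase (1.92), and ENSG00000268083 (1.49, overlapping ECH1 and HNRNPL). ENSG00000268083 had an adjusted p of 0.057 in limma with the replicate block. Only EGR1 and NFE2L3 of the 12 highest were called without DMSO replicate 1 or without DMSO replicate 2. With equal library sums, 5 of the 12 highest were still called.

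The promoters of 4 of these higher genes are printed because 2 immediate early genes and 2 histone genes moved against the direction of most calls. Each run is the 250 bases before the annotated start, plus strand, 5′ to 3′, from RefSeq on GRCh38.p14: EGR1 at chr5:138465229-138465478, FOS at chr14:75278578-75278827, H2AC6 at chr6:26123922-26124171 and H2BC5 at chr6:26157871-26158120. Capitals mark matches on either strand to the TATA box TATAAA, to the CCAAT box, to TGACGT, found in cAMP response elements, and to the CArG box, the site bound by serum response factor. No 2 of these motifs overlapped in the 4 windows.
EGR1: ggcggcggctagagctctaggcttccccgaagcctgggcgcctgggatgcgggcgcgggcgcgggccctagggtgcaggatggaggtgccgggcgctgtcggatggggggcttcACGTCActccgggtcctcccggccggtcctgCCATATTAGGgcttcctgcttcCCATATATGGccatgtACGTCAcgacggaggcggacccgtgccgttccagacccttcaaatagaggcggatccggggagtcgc
FOS: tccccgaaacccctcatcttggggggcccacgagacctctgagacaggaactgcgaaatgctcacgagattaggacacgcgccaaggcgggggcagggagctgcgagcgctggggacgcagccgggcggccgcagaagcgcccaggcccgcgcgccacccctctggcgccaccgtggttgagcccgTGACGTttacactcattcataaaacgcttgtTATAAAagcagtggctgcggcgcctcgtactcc
H2AC6: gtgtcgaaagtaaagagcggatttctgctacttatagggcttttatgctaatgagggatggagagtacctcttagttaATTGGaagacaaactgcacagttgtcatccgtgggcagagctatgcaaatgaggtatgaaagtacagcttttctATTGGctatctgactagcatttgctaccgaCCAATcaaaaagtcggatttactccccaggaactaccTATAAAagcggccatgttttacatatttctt
H2BC5: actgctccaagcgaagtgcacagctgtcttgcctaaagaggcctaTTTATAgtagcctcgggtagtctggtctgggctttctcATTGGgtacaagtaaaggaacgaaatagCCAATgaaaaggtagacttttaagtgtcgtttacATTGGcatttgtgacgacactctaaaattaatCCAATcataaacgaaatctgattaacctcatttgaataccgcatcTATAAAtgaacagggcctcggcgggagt
The EGR1 window held 2 CArG boxes and 2 TGACGT matches, and the FOS window 1 TATAAA and 1 TGACGT match. H2AC6 held 1 TATAAA match and 3 matches to the CCAAT box, and H2BC5 held 2 and 4. Of 27305 promoters in the table, one per symbol, 1.1% held a CArG box, 7.4% held TGACGT, 11.1% held TATAAA and 33.0% held the CCAAT box in the same 250 bases. A match is a description of the letters and not a bound site. Bases further upstream were not searched, so a motif without a match in a window may still lie beyond it.

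The gene lists that follow were chosen with earlier results of these data known, so their counts are descriptions. Each count is read against the 7.41% lower and 1.84% higher among all genes tested. Genes named below that overlap another coding gene include BRD2, BRD3, MEPCE, FOXA1, ERBB2, CCND1, RPL7, EIF3H and SON, so their reads may be shared too. Genes of the BET and elongation machinery were measured first. BRD3 was at 123, 202 and 78.1 in DMSO and at 8.59, 9.17 and 29.5 in JQ1-VHL, a log2 change of -3.13 ± 0.62 (limma adjusted p = 0.019). BRD2 was at 2549, 2870 and 1148 against 717, 955 and 386, a change of -1.66 ± 0.40 (limma adjusted p = 0.036). The values are for the RNAs and not for the proteins that the drug targets. Of 18 tested P-TEFb, super elongation and pausing factor genes, 2 were lower and 0 higher: MEPCE, which caps and holds the 7SK RNA (-3.16), and CDK9 (-2.80). The list's median was -0.58, with a median DMSO value of 80.72. Over all genes with a mean of 35.19 to 105.9 the median was -0.55 and 11.7% were called lower, beside 2 of 18 here.

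**Figure D4:**
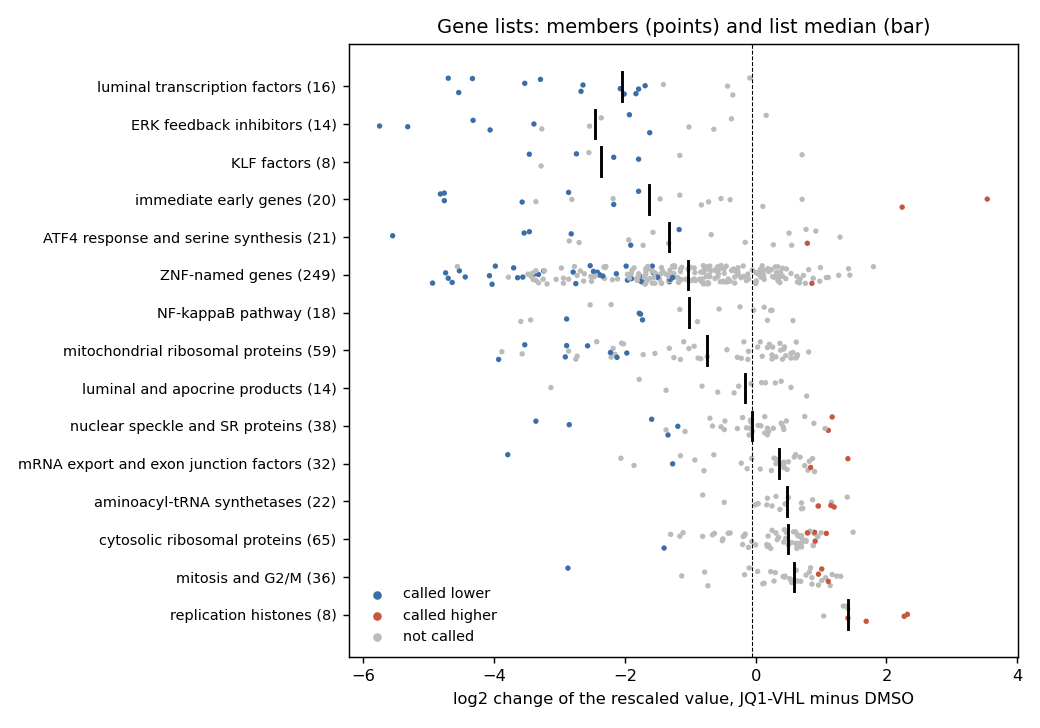
Each point is a tested gene of the list on the left (number tested in brackets), placed at its log2 change, JQ1-VHL minus DMSO, with vertical scatter added for legibility; blue and orange mark called genes, the bar is the list's median and the dashed line the median of all genes (-0.05). Luminal transcription factors, ERK feedback inhibitors and KLF factors have medians at or below -2.04, and replication histones a median of 1.41.

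Luminal transcription factors were the list with the highest share of lower calls among the lists drawn. Of 16 tested, 12 were lower and 0 higher, with a median log2 change of -2.04. Among them were ZNF217, FOXA1, TFAP2C, XBP1, TBX3, TFAP2B, TFAP2A, SPDEF, MYB, GATA3 and TRPS1. FOXA1, a pioneer factor that opens chromatin for hormone receptors, was at 672, 541 and 436 in DMSO and at 67.0, 36.7 and 3.94 in JQ1-VHL, a change of -4.54 ± 0.78 (limma adjusted p = 0.013). SPDEF was at 219, 268 and 96.9 against 36.1, 26.0 and 88.5, and its call was lost with the replicate block (limma adjusted p = 0.064). GRHL1, GRHL2, CREB3L4 and EHF were not called. Of 14 tested luminal and apocrine products, 0 were called in either direction, with a median of -0.17. These products, the keratins KRT8 and KRT18 among them, ranged from -3.13 for TMPRSS2 to 0.78 for FASN. Their median DMSO value was 1209, and that of the factors 253.8. Over all genes, 1.43% were called lower at a mean of at least 419.8, and 11.3% at a mean of 106 to 419.7. In total RNA, 7 of the 14 products were called higher and 6 lower, beside 24.3% and 26.9% of all genes. There 15 of the 16 factors were lower. Whether the lists differ from each other was not tested. Without DMSO replicate 1 or 2, the count of lower luminal factors was 3 and 2.

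Feedback inhibitors of ERK signalling had a median of -2.45, and 7 of 14 were lower, 0 higher. Besides DUSP4, SPRY1 and DUSP6 these were DUSP10 (-4.32), DUSP5 (-3.39), DUSP2 (-1.93) and SPRED1 (-1.62). RASA1 (0.16) and SPRED2 (-0.37) were not called. Immediate early genes went both ways: of 20 tested, 7 were lower and 2 higher, with a median of -1.62. The lower ones were MYC, FOSL2, ZFP36L1, PLK2, BTG1, KLF6 and KLF4, and the higher ones EGR1 and FOS. FOSL2, an AP-1 subunit like FOS, was at 20.1, 77.0 and 11.01 in DMSO and at 0 in all 3 JQ1-VHL libraries, so it was at least 6.91-fold lower against a floor of 3 reads per library. Of 8 tested KLF factors, 4 were lower and 0 higher, with a median of -2.36: KLF11, KLF3, KLF6 and KLF4. The count without DMSO replicate 1 or 2 was at most 3 lower and 1 higher for each of these lists. Median DMSO values of the ERK, immediate early and KLF lists were 191.3, 105.7 and 167.2. Over all genes, 11.3% were called lower at a mean of 106 to 419.7 and 11.7% at 35.19 to 105.9.

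Counts for growth factor and survival signalling stand beside 7.41% lower calls over all genes. The median DMSO values of these lists ran from 141.4 to 377.3. Over all genes with a mean of 106 to 419.7, 11.3% were called lower, and whether the lists differ from that share was not tested. Of 25 insulin and IGF genes, 4 were lower and 0 higher, with a median of -0.35: IRS1, PIK3R1, IGFBP5 and PIK3CA, and 2 were lower with the replicate block. Of 7 ERBB receptor and adaptor genes, GAB1 (-2.80) and GRB7 (-1.98) were lower and GRB2 (0.84) higher. ERBB2 itself was at 2651, 1762 and 1432 against 3233, 3357 and 2672, a change of 0.71 that was not called (limma adjusted p = 0.1). Of 16 TGF-beta genes, 3 were lower: the corepressor SKIL (-3.09), PMEPA1 (-2.70) and SMAD7 (-2.38), and 6 were lower with the replicate block. Of 18 NF-kappaB genes, 4 were lower: TRAF6, NFKBIE, NFKB1 and NFKBIA, and the call of NFKBIE was lost with the block (limma adjusted p = 0.057). Of 10 BCL2 family genes, 2 were lower, the pro-apoptotic BCL2L11 (-3.80) and the anti-apoptotic BCL2L1 (-3.71), whereas MCL1, at 1218, 1377 and 927 against 858, 825 and 976, was not called. CCND1, a G1 cyclin, was at 297, 401 and 243 against 65.3, 53.5 and 110, a change of -2.06 ± 0.38 (limma adjusted p = 0.015), and 3 of 17 G1 cyclin, CDK and inhibitor genes were lower. Of 30 MYC partners and targets, 4 were lower and 0 higher, among them MGA (-2.43) and the polyamine enzyme ODC1 (-1.63).

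Of 21 genes of the ATF4 response and serine synthesis, 6 were lower and 1 higher, with a median of -1.33. Within batches 1 to 3 the list's median was -0.91, -2.16 and 0.51. Without DMSO replicate 1 or without DMSO replicate 2, 1 gene was lower and 0 higher. With all 6 libraries the lower ones were the 3 tribbles pseudokinases TRIB2 (-5.55), TRIB1 (-3.54) and TRIB3 (-3.46), DDIT4 (-2.82), the transporter subunit SLC3A2 (-1.91) and ATF4 itself (-1.17). The higher one was the folate enzyme MTHFD1 (0.79), whose call was lost with the block (limma adjusted p = 0.050), and with equal sums the counts were 9 lower and 0 higher. ASNS, asparagine synthetase, changed by 1.29 and was not called. Of 22 aminoacyl-tRNA synthetase genes, 3 were higher and 0 lower: WARS1 (1.20), YARS1 (1.15) and EPRS1 (0.96). That list's median of 0.47 became 0.00 with equal library sums.

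Ribosomal protein genes of the cytosol and of mitochondria had medians of opposite sign, a difference that was not tested. Of 65 cytosolic ribosomal protein genes, 4 were higher and 1 lower, with a median of 0.50 that was 0.02 with equal sums, and 12 were higher with the replicate block. RPL27 was at 3186, 4322 and 4674 in DMSO and at 7315, 7343 and 7902 in JQ1-VHL, a change of 0.91 ± 0.22 (limma adjusted p = 0.033), whereas RPL7 changed by -1.40. Of 59 mitochondrial ribosomal protein genes, 8 were lower and 0 higher, with a median of -0.74. MRPS26 was at 49.2, 39.5 and 99.1 against 0, 10.7 and 3.94. The mitochondrial list had a median DMSO value of 138.2 and the cytosolic list one of 1520, and level moved with the change over all genes (below). Translation factors had 3 higher and 3 lower of 38, with EIF3H at 1.06 and EIF1AX at -2.96. Nuclear-encoded oxidative phosphorylation had 2 higher and 2 lower of 58, and glycolysis 1 and 1 of 19, GAPDH at 0.90 and PFKFB3 at -2.56. Medians were 0.24, 0.27 and 0.55, and with equal sums they were -0.23, -0.20 and 0.08.

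Over 8 lists of RNA processing and transcription genes, with a gene counted once per list, 16 of 304 were higher (5.26%) and 17 lower (5.59%), beside 1.84% and 7.41% over all genes. The median DMSO values of these lists ran from 203.4 to 1720. Over all genes with a mean of at least 419.8, 5.77% were called higher and 1.43% lower. At a mean of 106 to 419.7 the shares were 1.03% and 11.3%. Of 32 mRNA export and exon junction genes, 2 were higher (THOC2 at 1.41 and EIF4A3 at 0.84) and 2 lower (NXT1 at -3.79 and POLDIP3 at -1.27), with a median of 0.36, or -0.11 with equal sums. NXF1, the main mRNA export receptor and partner of NXT1, was at 1229, 1306 and 1655 against 1980, 2075 and 1596 and was not called. Of 38 nuclear speckle and SR protein genes, 2 were higher and 5 lower, the kinases CLK4 (-3.36) and DYRK1A (-2.85) among the lower and the kinase CLK2 (1.17) among the higher. SON, a speckle scaffold, was at 2417, 2456 and 1658 against 2260, 2022 and 1881, and the groups overlapped. The core spliceosome had 4 higher and 1 lower of 52, hnRNP proteins 3 and 1 of 24, nucleoporins and transport receptors 3 and 1 of 48, RNA polymerase II and general factors 1 and 1 of 36, and RNA decay and 3-prime end processing 1 and 3 of 35. Of 39 Mediator and Integrator genes, 3 were lower and 0 higher. With the replicate block, nucleoporins had 1 higher and 2 lower.

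All 8 tested replication histone genes had JQ1-VHL values above DMSO values with no overlap, where 15.1% of all tested genes did, and 4 were called higher. The 4 were H2AC6, H4C8, H2BC5 and H2BC12. The list's median was 1.41, or 0.94 with equal sums, where 0 were called. These genes are known for mRNAs without a poly(A) tail and without introns, the libraries were made from polyadenylated RNA, and only 9 of 41 listed genes had an interval, so the values concern those intervals. Of 4 histone variant genes 0 were called. Mitosis and G2/M genes had 3 higher (NUF2, UBE2C and CKS1B) and 1 lower (CENPF, -2.87) of 36, with a median of 0.58, or 0.11 with equal sums. S phase and E2F targets had 1 higher and 2 lower of 41. The actin gene ACTB was at 77030, 89260 and 87690 against 127100, 124300 and 130100, a change of 0.59 ± 0.18 that was not called (limma adjusted p = 0.067, and 0.050 with the replicate block), and 2 of 24 actin cytoskeleton genes were higher and 1 lower.

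The change moved with the level of the gene. Over 4 bins of equal size by mean rescaled value, from lowest to highest, the median log2 change was -0.85, -0.55, -0.03 and 0.43, and 129 of the 165 higher calls lay in the highest bin. With equal library sums the median of the highest bin was -0.04 and that of the lowest -1.26. Genes with few exons had lower medians than genes with many: with 7 or fewer merged exon blocks the median was -0.62, with 8 to 11 it was -0.26, with 12 to 19 it was 0.01 and with 20 or more it was 0.26. Within the lowest bin of level the same 4 classes of exon number gave -1.30, -0.84, -0.57 and -0.20. In the highest bin they gave 0.44, 0.41, 0.41 and 0.45, so no such order was seen among abundant RNAs. A gene's value sums its intervals, and how a read that touches more than 1 interval was counted is not given in the sources used here. Across genes, Spearman's correlation of the change with level was 0.445 over 8945 genes and with exon blocks 0.294 over 8844. Genes are not independent replicates, and the level includes both groups.

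Many lower calls of the cytoplasm were also lower in total RNA or in the nucleus, fractions that share no library with it. Total RNA includes the cytoplasmic RNA, and the fractions carry the same batch numbers, so they were not shown to be independent samples. In 8586 genes tested in all 3 fractions, 642 were lower in the cytoplasm. Of these, 574 were also called lower in total RNA (89.4% of the cytoplasmic and 24.9% of the 2302 total calls). In the nucleus 302 were called lower (47.0% and 19.7% of 1533). Of the 165 higher genes, 156 were higher in total RNA (94.5% and 6.82%) and 110 in the nucleus (66.7% and 8.08%). The background of calls was 51.2% of tested genes in total RNA (24.3% higher, 26.9% lower) and 33.9% in the nucleus (15.9% higher, 18% lower), so these shares are read against many calls. Across 8605 genes, Spearman's correlation of the cytoplasmic and the nuclear change was 0.595.

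A change that differed between fractions was tested directly by an interaction of fraction and treatment. It was called for 56 of 9637 genes, 0.581% of those tested: 37 lower and 19 higher in the cytoplasm relative to the nucleus. Each fraction was rescaled by itself, so a rise or fall is relative to the typical gene of that fraction and not absolute. On the ERCC scale the nuclear sums were 4.86, 2.55 and 2.33 M units in DMSO and 1.53, 2.04 and 0.753 M units in JQ1-VHL. The nuclear sums of the groups did not overlap, whereas the cytoplasmic sums did. BCL2L11 was at 127, 156 and 150 in DMSO cytoplasm and at 30.9, 6.11 and 3.94 in JQ1-VHL cytoplasm. In the nucleus it was at 94.5, 114 and 115 and at 101, 99.4 and 104, so its nuclear values stayed in one range. NFE2L2, the oxidative stress regulator also called NRF2, fell in the cytoplasm from 290, 283 and 127 to 124, 56.5 and 74.8 and rose in the nucleus from 128, 119 and 127 to 597, 719 and 385. The difference of the changes was -3.55 ± 0.52 (limma adjusted p = 0.015), and NFE2L2 overlaps AGPS. YWHAH, a 14-3-3 protein, the elongation factor gene ELOF1 and the thioesterase ACOT13 had differences of -4.42, -3.92 and -3.72. ACOT13 was low in the cytoplasm, at 14.5, 27.0 and 15.4 in DMSO and 3.44, 6.11 and 3.94 in JQ1-VHL. The floors of 3 reads in those JQ1-VHL libraries were 5.16, 4.58 and 5.90. It passed the naming rule through the JQ1-VHL nuclear values of 138, 137 and 76.6. KLF3 and SNHG16, a snoRNA host, were lower in the cytoplasm (-2.74 and -2.82) with nuclear changes of 0.40 and 0.08.

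The opposite direction was seen for DNPEP, an aspartyl aminopeptidase. It was at 92.8, 79.0 and 111 in DMSO cytoplasm and 110, 79.5 and 122 in JQ1-VHL cytoplasm, against 258, 233 and 256 and 33.0, 28.7 and 21.9 in the nucleus. The cytoplasmic values overlapped and the nuclear values did not, and the difference of the changes was 3.26 ± 0.42 (limma adjusted p = 0.007). NELFCD, a subunit of the pausing factor NELF, was at 43.6, 56.2 and 33.0 against 39.5, 71.8 and 94.5 in the cytoplasm and had a nuclear change of -2.75. The phosphatase gene INPP5J and MAB21L4 had differences of 3.13 and 3.65. The count of 56 was 3 to 134 when 1 library was left out, with 3 without DMSO cytoplasmic replicate 2, 4 to 8 without any 1 nuclear DMSO library and 134 without JQ1-VHL nuclear replicate 3.

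**Figure D5:**
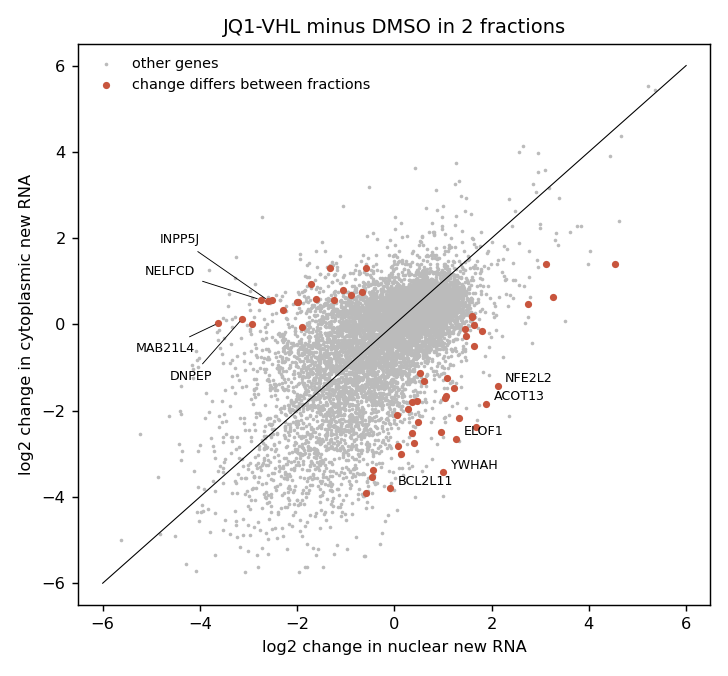
Each point is 1 of 8605 genes tested in both fractions, with its log2 change, JQ1-VHL minus DMSO, in nuclear RNA against that in cytoplasmic RNA; orange marks the 55 of these whose changes differed between fractions, and the line marks equal change. BCL2L11, YWHAH and NFE2L2 lie below the line, and DNPEP and MAB21L4 above it near a cytoplasmic change of 0.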

How the data were processed

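T-to-C reads of 18 libraries were deposited by the authors as 1 table of signal values for 98665 intervals, numbered within genes like the gaps between exons, read counts divided by 1 ERCC factor per library, per the file's name. All values were whole multiples of a library's unit to 0.01 of a read (100.0%), which gave back the reads. The ERCC spike-in was added by RNA mass, per the labels' protocols. Tools named in the submitters' processing notes are bcl2fastq, Trimmomatic 0.39, HISAT2, HTSeq and DESeq2, with builds GRCh37, hg19 and dm3. Their roles, the calling of T-to-C reads and the strand are not given in the sources used here. A PCR read is not an independent molecule, so floors of 3 counts cover counting error only.

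Intervals were summed per Ensembl ID (12755, of which 12512 had a symbol and 12546 were in GENCODE 29, used for exon blocks and overlaps). Values were divided by median-of-ratios factors over the 6 cytoplasmic libraries, from 8150 genes with reads in each, and 8945 genes with a mean of at least 10 were kept (99.85% of all value). Genes were tested with limma 3.58.1 (R 4.3.3), with a mean trend and robust moderation, on log2(value + 1), two-sided, Benjamini-Hochberg adjusted over all genes tested at 0.05. A fold change on that scale understates the change of low genes. The interaction used 6 cytoplasmic and 6 nuclear libraries, each fraction rescaled by itself. Only the compared libraries entered each fit, so that spread was not borrowed from other fractions. edgeR 4.0.16 (on recovered reads) and DESeq2 1.42.0 were alternatives, as were pseudocount, filter, scaling, interval choice, replicate block and leaving out each library. Scripts were tested on simulated data. The same batch number in both groups pairs the libraries, per the labels; correlations of same-numbered deviations were 0.10, -0.04 and 0.05.

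Named genes were the 12 lowest and 12 highest calls with non-overlapping groups and a mean of at least 100 in the higher group, a fixed set of regulators, up to 2 called genes per direction in each list, and 5 interaction genes per direction. The libraries follow from the labels alone, but this comparison and the gene lists were chosen with earlier results of these data known. Some named genes are not reported here.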

Additional observations from a re-analysis of the deposited data

Results flagged for a closer look

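For the 9 genes given here the change differed between cytoplasm and nucleus by limma's interaction test at an adjusted p under 0.05. They are among the 5 lowest and 5 highest such genes with a group mean of at least 100. Values are the cytoplasmic minus the nuclear log2 change, each relative to the typical gene of its fraction. Lower in the cytoplasm relative to the nucleus were YWHAH (-4.42, with changes of -3.43 and 0.99 in cytoplasm and nucleus), ELOF1 (-3.92), ACOT13 (-3.72), BCL2L11 (-3.72, with changes of -3.80 and -0.09) and NFE2L2 (-3.55). Higher were MAB21L4 (3.65, with changes of 0.03 and -3.62), NELFCD (3.32), DNPEP (3.26) and INPP5J (3.13). YWHAH, ACOT13 and NFE2L2 overlap other genes, and ACOT13 was near the floor of 3 reads in JQ1-VHL cytoplasm.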

How the results depend on the processing

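Against 828 calls on rescaled values, a pseudocount of 0.1 gave 423, the highest interval of each gene 442 (34 higher, 408 lower), a fit on all 18 libraries 2642 (896 higher, 1746 lower) and DESeq2 1509 (419 higher, 1090 lower). edgeR with TMM gave 833, 731 of them shared. Leaving out 1 library gave 18 to 955. The replicate block gave 813, 686 of them shared; beyond the genes named with it, calls of MRPL33, EZR, PSME3, SEC13, GINS3, SNRNP200, NUP58, HDAC1, NBN, SLC29A3 and RAB1B were lost at adjusted p of 0.051 to 0.066. TMM factors gave 302 higher and 645 lower. With the block, list counts that moved by over 1.5 times and are not given above were 5 higher translation factors, 2 higher glycolysis genes, 2 lower core spliceosome genes, 2 lower RNA polymerase II genes, 1 lower S phase gene, 3 higher solute carriers, 1 higher RAB gene, and 0 in place of 1 for higher ER genes, higher histone-modifying enzymes, lower actin cytoskeleton genes and lower double-strand break repair genes. On the ERCC scale, against 0 calls, a pseudocount of 0.1 gave 10, the highest interval 4 and the 18-library fit 370, and leaving out 1 library 0 to 986. The interaction's 56 calls became 105 with a pseudocount of 10, 5 with the highest interval, 68 with the block and 3 to 134 without 1 library. Leaving out 1 library moved the ratio of sums, 1.04, to between 0.737 (DMSO replicate 2 out) and 1.93 (DMSO replicate 3 out), and below 1 also with DMSO replicate 1 out (0.983) or JQ1-VHL replicate 2 out (0.931). Signs turned for uncalled genes: PVT1 to -0.58 with the highest interval, NXF1 to -0.04 and PVT1 to -0.03 with equal sums, and SON to 0.03 in 3 fits that left out 1 library, of a range from -0.27 to 0.03. The causes were not tested. Genes near 3 reads per library are limited by depth.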

Other observations

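Values of 4 genes at levels too low for the naming rule are given as a description. They were chosen after their values were seen and passed the filter through the JQ1-VHL group, so no test is given. NUP210L, a nucleoporin gene of testis, was at 2.24, 0 and 0 in DMSO and at 53.3, 81.0 and 70.8 in JQ1-VHL. TEX14, needed for the bridges between male germ cells, was at 0, 4.16 and 0 against 79.1, 85.6 and 59.0. MEIOB, a factor of meiotic recombination, was at 0, 4.16 and 5.50 against 70.5, 44.3 and 55.1. The antisense transcript GUCY2C-AS1 was at 4.47, 8.32 and 0 against 108, 76.4 and 19.7.

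Genes named ZNF, mostly zinc finger transcription factors, were lower more than higher: 36 of 249 lower and 1 higher, with a median of -1.03 and a median DMSO value of 59.04. Over all genes with a mean of 35.19 to 105.9 the median was -0.55, with 11.7% lower. Beside 7.41% lower and 1.84% higher calls over all genes, solute carriers had 7 lower of 146, RAB GTPases 3 lower and 2 higher of 34, LINC transcripts 1 lower of 30 and named antisense transcripts 3 lower and 1 higher of 95. Among 334 long noncoding genes, 15 were lower and 3 higher, with a median of -0.12. Proteasome genes had 6 lower of 32 and a median of 0.09, chaperones 4 higher and 3 lower of 32, histone-modifying enzymes 5 lower and 1 higher of 54 and double-strand break repair 2 higher and 1 lower of 39.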
